A study of Homo sapiens with 4 samples.

Results

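The genes examined here encode the machinery that cleaves pre-mRNA, adds and binds its tail, and extends RNA ends with non-templated nucleotides. They are 36 of the 19820 protein-coding genes with an annotated coding transcript on chromosomes 1 to 22, X and Y, and they were chosen by name: the 3′-end processing factors, the poly(A) and uridylyl polymerases, the poly(A) binding proteins, and Star-PAP itself, whose gene is TUT1, with its partners RBM10, PIP5K1A and CSNK1A1. The question was where the pull-down of Star-PAP left peaks on the genes of its own machinery, its own gene included. Star-PAP HITS-CLIP, in which RNA crosslinked to a protein by UV light is precipitated with an antibody and sequenced, was carried out on HEK293, an established human embryonic kidney cell line. Anti-Star-PAP pull-downs came from control cells, from cells given siRNA against Star-PAP (siStar-PAP) and from cells given siRNA against RBM10 (siRBM10), with 1 library for each, and an IgG pull-down served as the reference of the peak calling. All cells were described as transfected with siRNA, harvested after 48 h and irradiated at 400 mJ per cm2, and the siRNA given to control cells is not given in the sources used here. The library named by its pull-down of Star-PAP alone was taken as the control. Each list gives 1 summit of 1 bp for each peak, with a score that is the −log10 of the p-value of the peak calling, and it holds no RNA level, so the extent of either depletion was not checked here. With 1 library per condition there was no replicate check, no test between conditions was made, and the 95% intervals below cover counting error only.

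Most pre-mRNAs are cut and tailed by a large complex. The cleavage and polyadenylation specificity factor recognises the AAUAAA signal and holds the endonuclease, the cleavage stimulation factor binds GU-rich sequence downstream, the cleavage factors Im and IIm complete the complex, and a poly(A) polymerase adds the tail, which poly(A) binding proteins then cover. Star-PAP is a nuclear non-canonical poly(A) polymerase that acts on selected mRNAs and also uridylates U6 snRNA, and RBM10 is an RNA-binding protein and splicing regulator that associates with it.

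The lists held 411400 summits in control, 325797 in siStar-PAP and 294402 in siRBM10. The commonest score of each list was 1.33 for 63.2% of control summits, 2.92 for 22.8% in siStar-PAP and 3.25 for 22.7% in siRBM10. The control value lies near the p-value limit of 0.05 of the peak calling. In all, 250 control, 352 siStar-PAP and 245 siRBM10 summits lay between the annotated start and end of a member gene. Of the 250 in control, 135 (54.0%) had the score of 1.33. The number per member ran from 0 to 35 in control, with a median of 5, from 1 to 29 in siStar-PAP, with a median of 8.5, and from 0 to 18 in siRBM10, with a median of 5.5. TUT4, a uridylyl transferase with a gene of 145.2 kb, was the highest member in each list, with 35, 29 and 18 summits. At least 1 summit was found in 29 of the 36 members in control, beside 70.2% of all protein-coding genes, in 36 members in siStar-PAP, beside 85.4%, and in 35 members in siRBM10, beside 84.4%. The 7 members without a control summit were CPSF1, CSTF2T, CLP1, PABPN1, PPP1CA, SSU72 and PABPC4, and each of them held siStar-PAP summits.

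Most of these summits lay outside annotated CDS and UTR, in sequence counted here as intron. In control, 19 of the 250 summits lay in CDS, 11 in 3′-UTRs, 1 in a 5′-UTR and 219 outside. In siStar-PAP the split was 36, 24, 10 and 282, and in siRBM10 it was 24, 10, 7 and 204. An exon summit was present in 16 members in control, beside 30.4% of all protein-coding genes. The number was 29 in siStar-PAP, beside 52.8%, and 20 in siRBM10, beside 50.8%. Per kb of exon, members held 1.52 times (1.03 to 2.16) the control summits of all protein-coding exons, 1.48 times (1.16 to 1.88) the siStar-PAP summits and 0.954 times (0.685 to 1.29) the siRBM10 summits. Without TUT1 and RBM10, 10 control CDS summits were left and the control ratio was 1.11 (0.698 to 1.69). With both genes kept, exon summits whose surrounding 20 nt have 100 or more exact copies in the genome were also left out. The control ratio was then 1.30 (0.838 to 1.91).

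**Figure D1:**
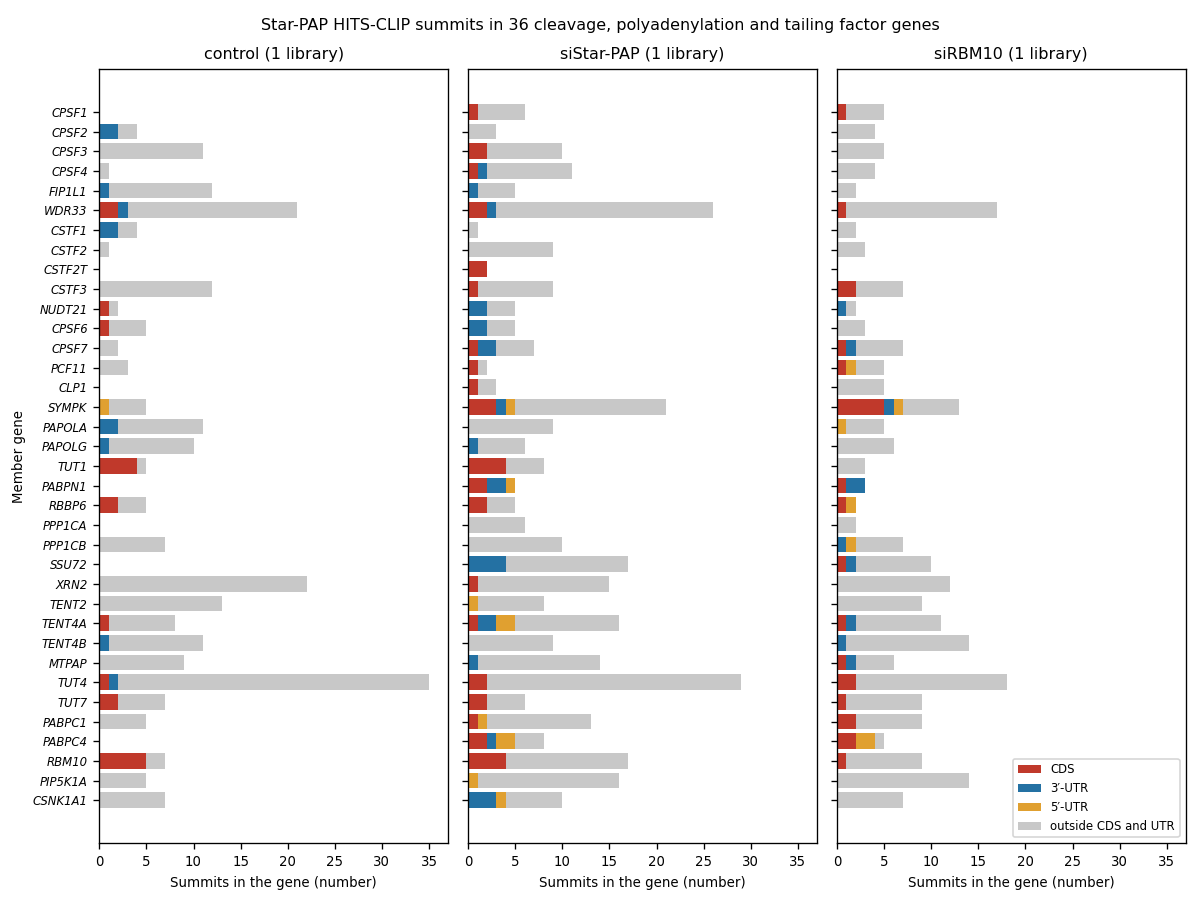
Number of summits in each of the 36 member genes in the control, siStar-PAP and siRBM10 lists, 1 library each, split into CDS, 3′-UTR, 5′-UTR and sequence outside both. TUT4 has the longest bar in each list, and the longest CDS segments of the control panel are those of RBM10 with 5 and TUT1 with 4 summits.

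RBM10 and TUT1, the genes of the depleted proteins, held many control CDS summits for their length. Of the 19820 genes, 27 held 4 or more control CDS summits, which is 0.136%, and TUT1 and RBM10 were both among them (the limit of 4 was chosen after the values were seen). The median coding length of these 27 genes was 13.4 kb, against 2.99 kb for RBM10 and 2.74 kb for TUT1. Per kb of CDS, RBM10 was the densest of the 27 with 1.68 summits and TUT1 came next with 1.46. Over all genes, 126 were denser than RBM10 and 186, RBM10 included, denser than TUT1, and but for RBM10 these held fewer than 4 summits each. In siStar-PAP, 334 genes held 4 or more CDS summits, TUT1 and RBM10 with 4 each among them. Both genes were chosen with earlier results of these data known, and these ranks are a description.

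In control, RBM10 (X, 47004620 to 47046212 on hg19) held 5 CDS summits, with scores of 8.28, 10.0, 7.93, 29.1 and 18.5 from the 5′ to the 3′ end of the gene. They lay in exons 2, 3, 4, 17 and 20 of the 24 exons of the transcript with the longest coding sequence, from 4.56% to 81.6% of its length. The score of 29.1 ranked 23 in the whole control list, and no other gene had a higher exon score. In siStar-PAP, RBM10 held 4 CDS summits with scores of 1.73, 2.09, 2.55 and 3.89, and in siRBM10 it held 1 with a score of 2.05. The number of summits outside exons was lowest in control, with 2 there, 13 in siStar-PAP and 8 in siRBM10. RBM10 has a GC content of 50.3%. Of all 10107 protein-coding genes of 45% GC or more, 7722 held more summits in siStar-PAP than in control, and 7387 did in siRBM10, counted over the whole gene. Scores depend on the depth of each library and of the IgG library, so they rank summits within a list and are not set against each other between lists. The 20 nt of genome around each control summit, 10 nt upstream of it and the summit as base 11, are shown on the strand of the gene because they include the 3 highest control scores of any member, and they may run past the end of an exon. Any ATA, the DNA form of the AUA that has been described in Star-PAP target RNAs, would stand in capitals, and these windows hold none. The study called peaks with a fragment size of 500 bp. A 1-bp summit therefore does not place a bound site to within 20 nt, here or in the windows below.
RBM10 control CDS, chrX:47006811-47006830 (plus strand): tggctgggaagtgaaacgga
RBM10 control CDS, chrX:47028807-47028826 (plus strand): ggacatggactaccgttcat
RBM10 control CDS, chrX:47030436-47030455 (plus strand): gaggcctccccgggctccga
RBM10 control CDS, chrX:47041608-47041627 (plus strand): gaggcggacctatgttcccg
RBM10 control CDS, chrX:47044905-47044924 (plus strand): gtgggggccctgagcgggag
All 5 control windows of RBM10 occur once in the genome, and their GC content was between 50% and 80%. In exon 20, the siStar-PAP and the siRBM10 summits lay 5 bp apart, 55 and 50 bp downstream of the control summit, and their windows, shown for this closeness, overlap.
RBM10 siStar-PAP CDS, chrX:47044960-47044979 (plus strand): gctctgccgacgccagttcc
RBM10 siRBM10 CDS, chrX:47044955-47044974 (plus strand): tgtctgctctgccgacgcca
In exon 4 a siStar-PAP summit lay 27 bp from the control summit, and outside the exons both depletion lists had a summit at the same base, 47006716, 105 bp upstream of the control summit.

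TUT1 (chromosome 11, 62342517 to 62359109, minus strand) held 4 control CDS summits, with scores of 3.88, 6.01, 3.80 and 5.94 from its 5′ to its 3′ end, in exons 2, 5, 6 and 9 of 9. There were 39 genes with a higher exon score in control. In siStar-PAP, TUT1 again held 4 CDS summits, with scores of 3.06, 1.80, 7.83 and 3.14, of which that of 7.83 ranked 442 in the list and was the highest of any member in siStar-PAP. In siRBM10 it held none in exons and 3 outside them. Of the 4 control summits in CDS, 3 had a siStar-PAP summit within 500 bp, at 349, 224 and 499 bp, and none had a siRBM10 summit within that distance. The windows are shown as above, with the siStar-PAP summit of highest score added.
TUT1 control CDS, chr11:62356617-62356636 (minus strand): gagctgcgagaaaggcccag
TUT1 control CDS, chr11:62346080-62346099 (minus strand): ggcgccctgtggtcaagttc
TUT1 control CDS, chr11:62344645-62344664 (minus strand): ggggctgtcaggtgagaatg
TUT1 control CDS, chr11:62343126-62343145 (minus strand): ggacggtggggaagacaggg
TUT1 siStar-PAP CDS, chr11:62343475-62343494 (minus strand): gctgccgagcagcagccaat
Across the 3 lists TUT1 and RBM10 held 18 exon windows, and all 18 occur once in the genome. None of these summits lay in an annotated exon of another protein-coding gene. The study used expression constructs of Star-PAP and RBM10, made resistant to the siRNA by silent mutations, in other assays. The labels name none for these libraries. Position alone cannot assign a CDS summit to the cell's own mRNA or to a construct whose coding sequence differs by such mutations. The part of such a construct was not tested.

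**Figure D2:**
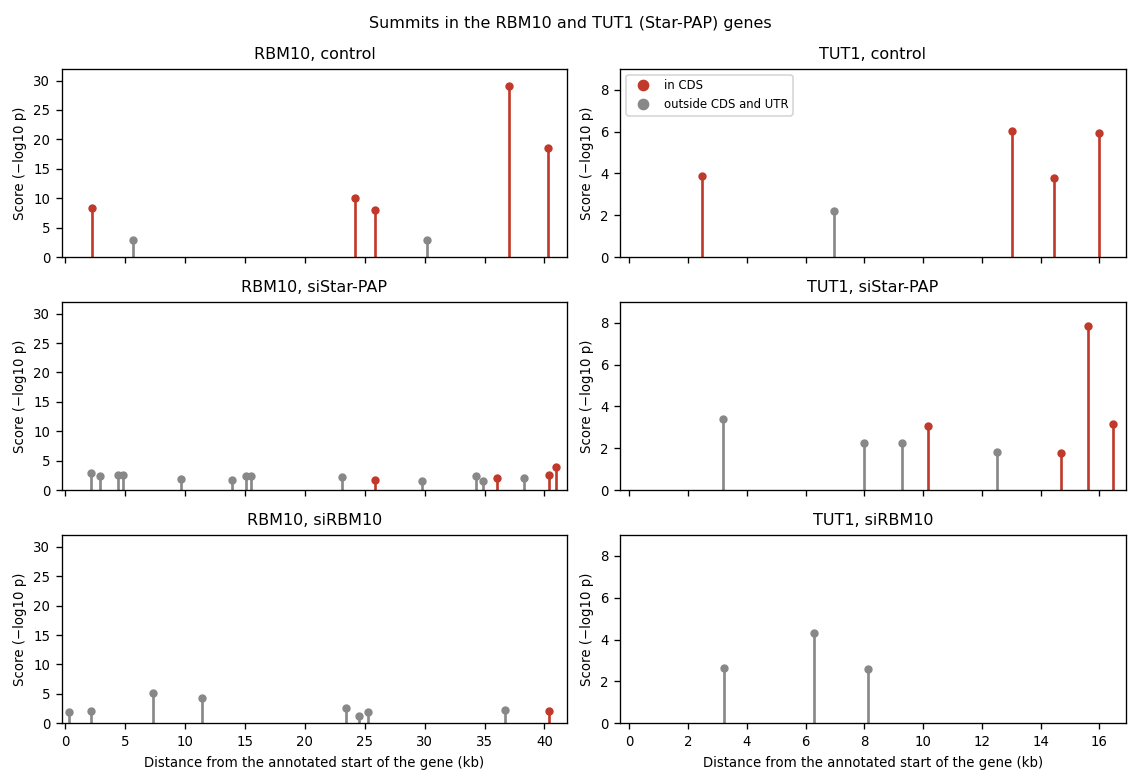
Position of each summit, in kb from the annotated start of the gene in the direction of transcription, against its score (−log10 p), for RBM10 on the left and TUT1 on the right in each list. Red summits lie in CDS and grey ones outside CDS and UTR. The control panel of RBM10 holds red summits up to 29.1, and the siRBM10 panel of TUT1 holds no red summit. The panels of a gene share a score axis, but scores rank summits within a list and are not set against each other between lists.

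The 3′-UTR is where the signals for cleavage lie. In control, 11 summits fell in the 3′-UTRs of 8 members: CPSF2, CSTF1 and PAPOLA with 2 each, and FIP1L1, WDR33, PAPOLG, TENT4B and TUT4 with 1 each. CPSF2 is the catalytically inactive partner of the endonuclease CPSF3, CSTF1 is a subunit of the cleavage stimulation factor, and PAPOLA and PAPOLG are canonical poly(A) polymerases. The scores were low: 5 of the 11 had p above 0.01, each with the commonest score of 1.33, and these lay in FIP1L1, WDR33, CSTF1, PAPOLA and PAPOLG. The other summits of CSTF1 and PAPOLA and those of TENT4B and TUT4 scored 2.28, and CPSF2 had 2.03 and 3.36, the highest. The windows are given in full, since they surround all control summits in the 3′-UTRs of the members. They need not hold the bound bases.
CPSF2 control 3′-UTR, chr14:92634870-92634889 (plus strand): tcattattcactccatttca
CPSF2 control 3′-UTR, chr14:92637039-92637058 (plus strand): gtgcactttgggtttgtctg
FIP1L1 control 3′-UTR, chr4:54326719-54326738 (plus strand): aatgtacccttggcagactt
WDR33 control 3′-UTR, chr2:128493298-128493317 (minus strand): aaatcttaaatcctctgtcc
CSTF1 control 3′-UTR, chr20:54979856-54979875 (plus strand): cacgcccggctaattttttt
CSTF1 control 3′-UTR, chr20:54980454-54980473 (plus strand): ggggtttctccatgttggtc
PAPOLA control 3′-UTR, chr14:96999114-96999133 (plus strand): ttggagatcacattgtgtat
PAPOLA control 3′-UTR, chr14:97032237-97032256 (plus strand): caaggtaggacttacttcgt
PAPOLG control 3′-UTR, chr2:61026755-61026774 (plus strand): tttgttttgttttgttttgt
TENT4B control 3′-UTR, chr16:50263415-50263434 (plus strand): aacaaaacaaaacaaaaaaa
TUT4 control 3′-UTR, chr1:52981416-52981435 (minus strand): tcttctctacctttcttctt
None of the 11 holds ATA, beside 26.0% of the control 3′-UTR windows of all protein-coding genes, and a count of 0 of 11 allows a share of up to 25.9% (Wilson). Their median GC content was 35%, with a range from 15% to 55%. Both CSTF1 windows, the PAPOLG window and the TENT4B window are repeated exactly in the genome, with 7492 and 13494 copies for CSTF1, 20551 for PAPOLG and 6790 for TENT4B, both strands counted. The other 7 windows occur once. Windows with 100 or more copies made up 36.4% of these 11 and 9.87% of the control 3′-UTR windows of all protein-coding genes, and no member exon window of the siStar-PAP or siRBM10 list had that many. The FIP1L1 summit also lies in an annotated exon of LNX1. The lists carry no strand, so a summit there cannot be assigned to 1 of these genes.

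Distance to an annotated transcript end was measured from each 3′-UTR summit to the nearest end downstream. The median was 1440 nt for the 11 control summits, 868 nt for the 24 siStar-PAP summits and 1428 nt for the 10 siRBM10 summits, beside 1129, 1009 and 1009 nt over all protein-coding genes. Within 200 nt of an end lay 1 control summit (9.09%), 4 siStar-PAP summits (16.7%) and 1 siRBM10 summit (10.0%), beside 13.0%, 14.6% and 15.1% over all protein-coding genes, so the shares of the members were near the background. The control one was that of FIP1L1, at 191 nt. Those of siStar-PAP were in SSU72, a phosphatase of the RNA polymerase II tail, at 11 nt, in PABPN1, the nuclear poly(A) binding protein, at 31 nt, in CSNK1A1, a casein kinase that phosphorylates Star-PAP, at 52 nt, and in PABPC4, a cytoplasmic poly(A) binding protein, at 88 nt. The last 2 lie in the 3′-UTR of another transcript than the one with the longest coding sequence, and with that transcript alone 14 of the 24 siStar-PAP and 8 of the 11 control summits in 3′-UTRs were left. The siRBM10 summit was in PPP1CB, a catalytic subunit of protein phosphatase 1, at 111 nt.

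The poly(A) signal hexamers AATAAA or ATTAAA were searched on the strand of the gene within 50 nt on either side of each 3′-UTR summit. In control 1 of 11 member windows held one (9.09%, Wilson 1.62 to 37.7), beside 16.1% for all protein-coding genes. In siStar-PAP the count was 5 of 24 (20.8%, 9.25 to 40.5), beside 8.23%, and in siRBM10 it was 1 of 10 (10.0%), beside 7.45%. These intervals are wide and overlap between the lists. The siStar-PAP summits with a hexamer were those of SSU72 at 11 and 212 nt from an end, PABPN1 at 31 nt, CSNK1A1 at 52 nt and TENT4A at 1912 nt. The 20 nt around the summits of SSU72 and CSNK1A1 nearest to an end are shown with ATA in capitals, and in SSU72 this ATA is part of the AATAAA.
SSU72 siStar-PAP 3′-UTR, chr1:1477055-1477074 (minus strand): caATAaacagatgctgctgt
CSNK1A1 siStar-PAP 3′-UTR, chr5:148872588-148872607 (minus strand): cacttgaaggattATActtg
The PABPN1 summit at 31 nt also lies in an exon of BCL2L2-PABPN1, an annotated readthrough gene.

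The study took as Star-PAP targets transcripts that were absent after Star-PAP depletion, with a minimum of tags, which the lists do not give. Here the members with an exon summit in control and none in siStar-PAP were counted, whatever they held outside exons. There were 4 such members of 16, CPSF2, CSTF1, PAPOLA and TENT4B, beside 38.6% of all protein-coding genes with a control exon summit. These 4 still held 3, 1, 9 and 9 siStar-PAP summits outside exons. For siRBM10 there were 6 of 16, CPSF2, CSTF1, FIP1L1, CPSF6, PAPOLG and TUT1, beside 40.4%. Only CPSF2 and CSTF1 held none in either depletion list. When exon windows with 100 or more exact copies were left out, CSTF1 and TENT4B were no longer counted, and CPSF2 and PAPOLA were the 2 members left for siStar-PAP. Exon summits in both depletion lists and none in control were held by 9 of the 36 members (CPSF1, CSTF3, CPSF7, PCF11, PABPN1, SSU72, MTPAP, PABPC1 and PABPC4), beside 21.6% of all protein-coding genes. In siStar-PAP alone they were held by 8 (CPSF3, CPSF4, CSTF2T, CLP1, XRN2, TENT2, PIP5K1A and CSNK1A1), beside 12.6%. PPP1CB held exon summits only in siRBM10, and CSTF2 and PPP1CA held none in any list. WDR33, NUDT21, SYMPK, RBBP6, TENT4A, TUT4, TUT7 and RBM10 held an exon summit in all 3 lists.

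To set genes of different length on 1 scale, the summits in each gene were divided by the number that the mean density of its own chromosome gives for its length. Over all members this ratio of observed to expected was 1.05 (0.928 to 1.19) in control, 1.77 (1.59 to 1.96) in siStar-PAP and 1.36 (1.19 to 1.54) in siRBM10. Over all protein-coding genes it was 0.962, 1.18 and 1.16. Members above 1 numbered 15 in control, 29 in siStar-PAP and 25 in siRBM10, beside 31.6%, 61.2% and 59.3% of all protein-coding genes.

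The specificity factor, which reads the AAUAAA signal, had a ratio of 0.976 (0.722 to 1.29) in control and 2.04 (1.56 to 2.62) in siStar-PAP. WDR33, which contacts the signal, held the most summits of its 6 genes, with 21 in control, 26 in siStar-PAP and 17 in siRBM10, of which 3, 3 and 1 lay in exons. All 3 of its control exon summits had the commonest score of the list, 1.33. In siStar-PAP the CDS summits scored 2.06 and 2.90 and that of the 3′-UTR 1.59, and the siRBM10 one scored 2.64. FIP1L1, which binds U-rich RNA and the poly(A) polymerase, had 12, 5 and 2 summits in control, siStar-PAP and siRBM10, the order in which numbers of the lists are given from here on. CPSF4, which also contacts the signal, had 1, 11 and 4, and CPSF1, the large scaffold of the complex, had 0, 6 and 5. CPSF3, the endonuclease, had 11, 10 and 5, and CPSF2 had 4, 3 and 4. The order of the lists therefore differed among subunits of the same complex.

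The stimulation factor had ratios of 0.930 (0.542 to 1.49), 1.47 (0.908 to 2.24) and 0.934 (0.483 to 1.63). CSTF2T, an intronless relative of CSTF2, had no summit in control or siRBM10 and 2 CDS summits in siStar-PAP, with scores of 2.64 and 6.60, of which the higher was among the 5 highest of the members in that list. CSTF3, the scaffold subunit, had 12, 9 and 7 summits, CSTF2, which binds the GU-rich element, 1, 9 and 3, and CSTF1 4, 1 and 2. The cleavage factors Im and IIm had ratios of 0.669 (0.346 to 1.17), 1.47 (0.923 to 2.23) and 1.63 (1.02 to 2.47). NUDT21, the subunit that binds UGUA, held a control CDS summit of score 1.33, whose window has 2 exact copies in the genome, and 3′-UTR summits in both depletion lists that lay 16 bp apart, with scores of 2.92 and 3.25, which were the commonest of their lists. Its other siStar-PAP summit in the 3′-UTR scored 4.70. The totals of the group stayed at or below 7 in every list: CPSF6 and CPSF7, the large subunits of cleavage factor Im, had 5, 5 and 3 and 2, 7 and 7. PCF11, which also binds the tail of RNA polymerase II, had 3, 2 and 5, CLP1, an RNA kinase, had 0, 3 and 5, and NUDT21 had 2, 5 and 2.

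Among the scaffold and associated factors, with ratios of 1.12 (0.794 to 1.53), 1.65 (1.30 to 2.07) and 1.15 (0.844 to 1.54), SYMPK, the scaffold of the cleavage complex, held 5, 21 and 13 summits. Its exon summits numbered 1, 5 and 7, and those of the CDS were absent from control. Its exon scores ranged from 2.06 to 5.58 in siStar-PAP and from 1.62 to 2.35 in siRBM10. A CDS summit of siStar-PAP, score 5.58, and one of siRBM10, score 2.05, lay at neighbouring bases, 46334842 and 46334841 of chromosome 19. The only control exon summit of SYMPK, in the 5′-UTR with a score of 3.63, lay 30 bp from a siStar-PAP summit, and its window has 6192 exact copies in the genome. The SYMPK pair and the NUDT21 pair are shown as examples of exon summits that lay close together in the depletion lists.
SYMPK siStar-PAP CDS, chr19:46334833-46334852 (minus strand): cctcaggtgtagagcagacc
SYMPK siRBM10 CDS, chr19:46334832-46334851 (minus strand): ctcaggtgtagagcagacca
NUDT21 siStar-PAP 3′-UTR, chr16:56464857-56464876 (minus strand): agtcatctgattcgaggcca
NUDT21 siRBM10 3′-UTR, chr16:56464841-56464860 (minus strand): gccactcatgttctttgtaa
RBBP6, a ubiquitin ligase of the complex, held 2 control CDS summits with scores of 1.33 and 2.03, 2 siStar-PAP CDS summits with 4.70 and 4.51, and 1 siRBM10 CDS summit with 4.97, beside a siRBM10 summit of 2.46 in the 5′-UTR. One of its control windows has 121 exact copies. SSU72 held 0, 17 and 10 summits, and its siRBM10 CDS summit of 5.56 was the second highest member score of that list. Its other exon summits scored from 1.73 to 3.35 in siStar-PAP and 2.24 in siRBM10. XRN2, the exonuclease that degrades the RNA left after cleavage, held 22, 15 and 12, all outside exons but a siStar-PAP summit in the CDS with 2.92. PPP1CA, another catalytic subunit of protein phosphatase 1, held 0, 6 and 2, and PPP1CB held 7, 10 and 7.

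The tailing enzymes had the highest control ratio of the role groups, 1.30 (1.07 to 1.57), with 1.46 (1.19 to 1.76) in siStar-PAP and 1.23 (0.975 to 1.53) in siRBM10. Each of the 9 genes held summits in each list. Beside the control summits of the 3′-UTR, PAPOLA held 1 exon summit in siRBM10, in the 5′-UTR with a score of 2.66, and none in siStar-PAP. Its totals were 11, 9 and 5, and those of PAPOLG were 10, 6 and 6. TENT4A, a non-canonical poly(A) polymerase, held a control CDS summit with a score of 2.28 that lay 95 bp from a siStar-PAP CDS summit with 2.64, and its totals were 8, 16 and 11. Its other exon summits scored from 1.73 to 2.61 in siStar-PAP and 2.19 each in siRBM10. TENT4B, its relative, had 11, 9 and 14, and TENT2, a cytoplasmic poly(A) polymerase, had 13, 8 and 9.

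The uridylyl transferases TUT4 and TUT7 held exon summits in all lists. For TUT4 there were 2 in control, of which that of the CDS scored 1.33 and that of the 3′-UTR 2.28, 2 in the siStar-PAP CDS, with 2.64 and 3.40, and 2 in the siRBM10 CDS, with 6.91 and 3.07. The score of 6.91 was the highest of any member in siRBM10. TUT7, with 7, 6 and 9 summits, held CDS summits of 1.33 and 2.28 in control, 2.64 and 2.56 in siStar-PAP and 3.25 in siRBM10. MTPAP, the mitochondrial poly(A) polymerase, held 9, 14 and 6, and its control summit of 8.34 outside exons was the fourth highest member score of control. Its exon summits scored 4.29 in siStar-PAP and 3.25 and 2.64 in siRBM10.

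The genes of the tail binding proteins PABPN1, PABPC1 and PABPC4 had a ratio of 0.586 (0.190 to 1.37) in control, 4.89 (3.19 to 7.16) in siStar-PAP and 3.52 (2.05 to 5.64) in siRBM10, the highest of the role groups in both depletion lists. PABPN1, a gene of 4.71 kb, held 0, 5 and 3 summits, PABPC4 0, 8 and 5, and PABPC1 5, 13 and 9. PABPN1 had the highest density of any member in both depletion lists, with 10.6 summits per 10 kb in siStar-PAP and 6.37 in siRBM10, all in exons. Its siStar-PAP summits at 23792212 and 23794512 and its siRBM10 summit at 23794769 also lie in exons of the readthrough gene BCL2L2-PABPN1. By position they cannot be assigned to 1 of these genes. A PABPN1 CDS summit scored 5.46 in siRBM10 and lay 45 bp from one that scored 3.35 in siStar-PAP, but its window has 2 exact copies in the genome, so its assignment to this gene is uncertain. The exon scores of PABPN1 ranged from 2.02 to 3.91 in siStar-PAP and from 2.71 to 5.46 in siRBM10. PABPC1 held a CDS summit at the same base in both depletion lists, at 101721770 of chromosome 8, with scores of 2.74 and 3.07, but the window there has 3 exact copies in the genome, so its assignment to this gene is uncertain. In PABPC4 the closest pair lay 34 bp apart in the 5′-UTR.

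Of the partners of Star-PAP, RBM10 is described above. PIP5K1A, the lipid kinase whose product stimulates Star-PAP, held 5, 16 and 14 summits, of which 1 lay in an exon, a siStar-PAP summit of the 5′-UTR with a score of 1.66. A siStar-PAP summit of 6.43 lay outside its exons. CSNK1A1 held 7, 10 and 7, with 4 exon summits in siStar-PAP, 3 of them in the 3′-UTR, and none in the other lists. The group had ratios of 0.810 (0.488 to 1.27), 2.39 (1.73 to 3.22) and 1.82 (1.23 to 2.59).

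**Figure D3:**
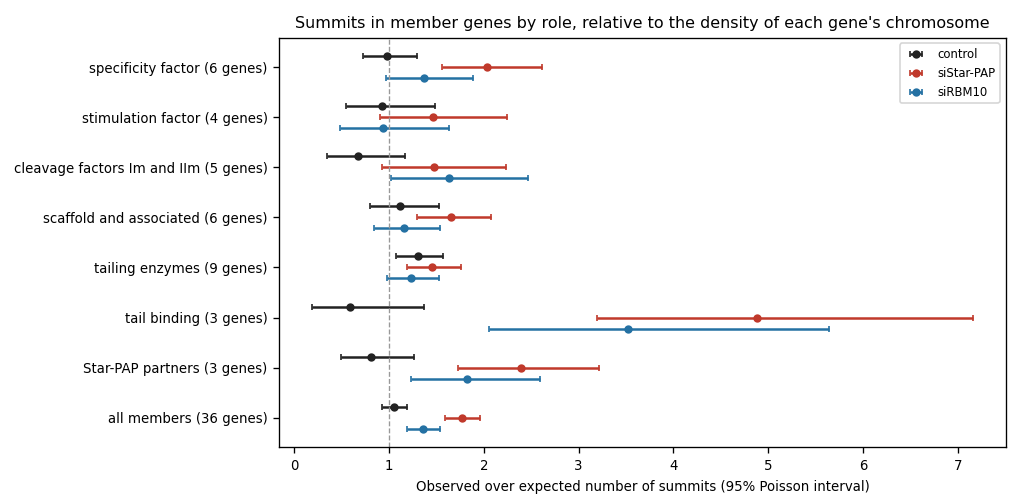
Observed over expected number of summits for the genes of each role and for all 36 members, with exact 95% Poisson intervals, in the 3 lists of 1 library each; the dashed line marks the mean density of the chromosome. The tail binding genes lie at 0.586 in control and at 4.89 and 3.52 in siStar-PAP and siRBM10.

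The base composition of the genes moved with these differences. Members were split at 40% and 45% GC over the whole gene, limits chosen after the values were seen. In the 12 members of 45% GC or more, summits numbered 31 in control, 134 in siStar-PAP and 84 in siRBM10. More summits than in control were found in 12 of these 12 genes in siStar-PAP and in 11 in siRBM10, and of all 10107 protein-coding genes of that composition in 7722 and 7387. The ratio to control was 4.32 (2.91 to 6.61) for siStar-PAP and 2.71 (1.78 to 4.23) for siRBM10, beside 3.61 and 3.01 in all those genes. In the 16 members under 40% GC, summits numbered 156, 136 and 101, with ratios of 0.872 (0.688 to 1.10) and 0.647 (0.499 to 0.837), beside 0.481 and 0.433 in all such genes. In the 8 members between, the numbers were 63, 82 and 60. This split takes all summits of each list and was not recomputed with p at most 0.01.

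CPSF1, PPP1CA, SSU72, CLP1, PABPN1 and PABPC4, 6 of the 7 members without a control summit, are among the 12 members of high GC content. Across the 36 members, Spearman's rho between GC content and summits per 10 kb was −0.44 in control, 0.76 in siStar-PAP and 0.66 in siRBM10, and over all genes it was −0.60, 0.42 and 0.38. These are descriptions across genes of the same 3 libraries, and genes are not replicates. The part of base composition in the role group values, those of the tail binding genes included, was not tested.

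**Figure D4:**
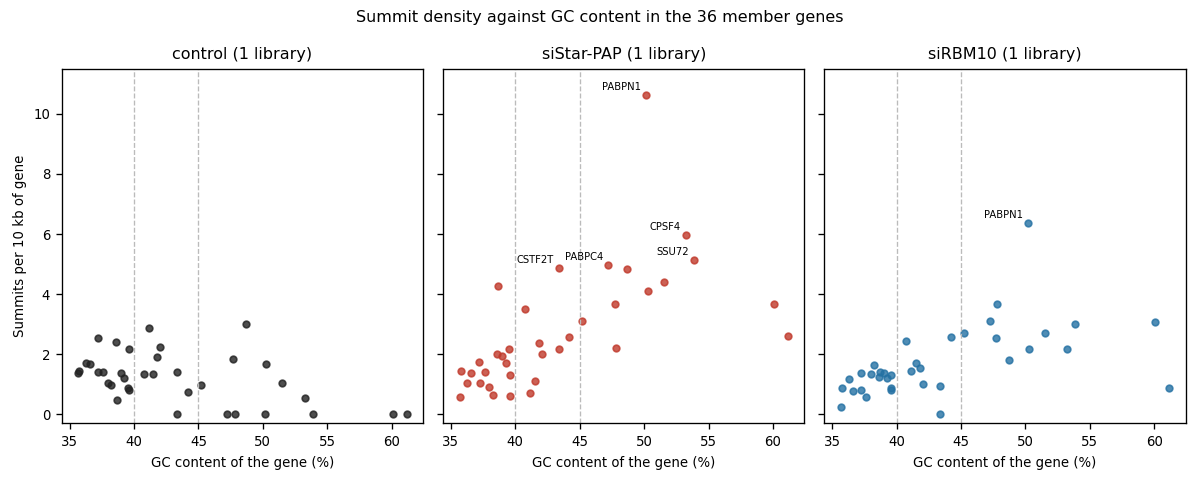
Summits per 10 kb of gene against the GC content of the gene for the 36 members in each list; dashed lines mark 40% and 45% GC. Of the 12 members of 45% GC or more, 6 lie at 0 in control, and PABPN1 is the highest point in siStar-PAP, with 10.6, and in siRBM10, with 6.37.

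Most summits of a list had no summit of a given other list within 500 bp, in the members as over all protein-coding genes. Of the 250 control summits, 53 (21.2%, 16.6 to 26.7) had a siStar-PAP summit within 500 bp, beside 12.8% over the summits of all protein-coding genes, and 31 (12.4%, 8.88 to 17.1) had a siRBM10 summit, beside 10.4%. Of the 245 siRBM10 summits, 69 (28.2%, 22.9 to 34.1) had a siStar-PAP summit within that distance, beside 21.2%. The members held 352 siStar-PAP and 245 siRBM10 summits, and the part of these numbers in the shares was not tested. Within 5 bp of a summit of another list lay 4 control, 10 siStar-PAP and 12 siRBM10 summits. Of the 31 control exon summits, 3 had a summit of both other lists within 500 bp and 19 had none in either. The counts within 5 bp and those of exon summits were not made over all protein-coding genes. They are therefore not read as a trait of the members.

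Other genes of RNA tail metabolism, 59 in all, give a scale for these values. This list comprised 15 deadenylases, 19 exosome and nuclear decay genes, 5 histone mRNA 3′-end processing genes, 10 termination genes and 10 other tailing and tail binding genes, and it too was drawn up with earlier results known. An exon summit was present in 28 of the 59 in control, beside 30.4% of all protein-coding genes. The number was 36 in siStar-PAP, beside 52.8%, and 38 in siRBM10, beside 50.8%. Their ratios of observed to expected summits were 1.06 (0.978 to 1.15), 1.36 (1.25 to 1.47) and 1.30 (1.19 to 1.41), against 1.05, 1.77 and 1.36 in the members. The subgroups differed: the other tailing and tail binding genes had 1.13 (0.893 to 1.40), 0.782 (0.572 to 1.04) and 0.892 (0.657 to 1.18), and the histone mRNA genes had 0.566 (0.259 to 1.07), 1.57 (1.03 to 2.28) and 2.51 (1.78 to 3.45). These intervals cover counting error only, and no test between the members and the 59 genes was made. With the density over all protein-coding genes of the chromosome as expectation, the siStar-PAP ratio of the members was 1.49 (1.34 to 1.65). The 59 genes were not recomputed in that way, and the part of base composition in the difference was not tested.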

How the data were processed

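The report covers 36 member genes in the peak lists of 3 Star-PAP HITS-CLIP libraries of HEK293 cells, and the IgG sample entered only as the reference of the peak calling. The authors filtered and trimmed the reads, aligned them with BWA 0.7.12 (version per the submitters' processing notes, as for cutadapt 1.14) to hg19, collapsed identical tags and ran MACS2 on every library at a p-value of 0.05. Each deposited list gives 1-bp summits scored by −log10 p. It gives no strand, width, tag count or read total, so the depth behind a summit is unknown here. The members and gene lists were chosen with earlier results of these data known.

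The summits of chromosomes 1 to 22, X and Y were placed with GENCODE release 44 mapped to hg19, CDS taking precedence over 3′-UTR, then 5′-UTR, then the rest of the gene, over all coding transcripts and without regard to strand. Every member is given by its counts. The exon summits are given with their scores or the range of these, and with positions where a site is shown or singled out, for TUT1, RBM10, PIP5K1A and PAPOLA, for members with an exon summit in all lists or in control alone, and for those with 1 of the 5 highest member scores of a list, and other values were chosen after they were seen. Expected numbers came from the summits per determined base of the gene's chromosome. Poisson and Wilson intervals are at 95%. Exact copies of the 20-nt windows were counted on both strands of the reference. Alternatives were p at most 0.01, distances of 100 and 1000 bp, the longest coding transcript, another class order, expectation from gene density, and genes extended by 1000 bp. Python 3.11.15 with numpy 2.4.6, scipy 1.17.1, pysam 0.24.0 and matplotlib 3.10.9 was used, and the counting steps were tested on simulated data.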

Additional observations from a re-analysis of the deposited data

How the results depend on the processing

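With p at most 0.01, the control list gave 6 3′-UTR summits in members in place of 11 and 86 outside exons in place of 219, an observed over expected ratio of 1.30 (1.06 to 1.57) and an exon ratio of 2.29 (1.40 to 3.54). This threshold lies above the commonest control score and below those of the other lists. With 1 transcript per gene there were 0 control 5′-UTR and 14 siStar-PAP 3′-UTR summits, and with 3′-UTR before 5′-UTR before CDS there were 3 control 5′-UTR summits. With the density over all protein-coding genes of the chromosome as expectation, the ratios were 1.49 (1.34 to 1.65) in siStar-PAP and 1.17 (1.03 to 1.33) in siRBM10. At 100 and 1000 bp, the control summits near a siStar-PAP summit were 5.20% and 36.4%, those near a siRBM10 summit 4.0% and 22.8%, and the siRBM10 summits near a siStar-PAP summit 8.57% and 45.7%. Chosen after the data were seen, the exclusion of TUT1 and RBM10 left 10 control CDS summits. The exclusion of exon windows with 100 or more copies, also chosen then, left 7 control 3′-UTR and 0 control 5′-UTR summits and 2 members with a control exon summit and none in siStar-PAP. For these differences beyond the fewer summits or genes counted, the cause was not tested. The other 71 of 90 recomputed values stayed within 1.5 times a count or within the interval of a ratio or share. No paired analysis was possible because each condition had 1 library. Summits without tag numbers leave depth unknown, a gene with 0 summits may still be bound, and no difference between lists has a replicate check.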
